A study of Thermothelomyces thermophilus ATCC 42464 with 8 samples.

Results

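The genes described here are 145 genes of the thermophilic fungus Myceliophthora thermophila whose yeast match is annotated as a regulator of transcription or as a zinc finger protein. They were chosen by words in the description that the count table gives for each gene, which reads as the annotation of a Saccharomyces cerevisiae protein. The text before the first semicolon had to hold transcription factor, transcriptional activator, transcriptional repressor, transcriptional regulator, zinc finger or zinc cluster. Of 9110 genes, 4237 had a description and 149 of these held such words. The regulators MYCTH_2298863, MYCTH_2310145, MYCTH_38704 and MYCTH_2296492 were left out by name, and text naming RNA polymerase I or ubiquitin removed 0 further genes. Had RNA polymerase I also been read inside the names of RNA polymerases II and III, 6 genes would have been dropped and 139 kept.

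RNA-seq gave 8 libraries of mycelium, 2 from each of 4 strains. JG207, the starting strain, was built from a wild-type isolate to overexpress Aomae, which encodes a malate transporter, and Aopyc, which encodes a pyruvate carboxylase, and the other strains carry both genes as well. DF1102 is JG207 lacking Mtxyl1 (MYCTH_43671), the gene of the xylose reductase that opens the fungal oxo-reductive route of d-xylose use. DF1406 lacks Mtxyl1 and overexpresses Mtxyd1, xylD, xylX and xylA. DF1501 lacks it too and overexpresses Mtxyd1, xylD, BxxylX and KsaD. Both gene sets encode the Weimberg pathway, an oxidative route from d-xylose to α-ketoglutarate, and were inserted at random genome positions, with Mtxyd1 and xylD under constitutive promoters. Every strain was grown for 24 h with 2% glucose at 45 °C and 150 rpm, washed, and kept for a further 4 h with 1% d-xylose. It is not given in the sources used here whether each library stands for its own culture, so the p-values measure how far these libraries lie apart, a spread that may be technical.

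The libraries held between 20727346 and 21408353 counts. Mtxyl1 fell in every deletion strain, from 1676 and 1773 RPKM (the read count over gene length and library total) in JG207 to 412 and 383 for DF1102, 102 and 109 for DF1406 and 252 and 228 for DF1501, so reads were still assigned to the deleted gene. Libraries of DF1501 lay further apart than those of the other strains, with a root mean square deviation of 0.202 on the log2 scale against 0.137 to 0.155.

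Transcription factors bind short DNA motifs and recruit or block the machinery that starts transcription. The zinc cluster proteins, which fold a cysteine-rich motif around a pair of zinc ions, are a class found almost entirely in fungi, where many of them switch on genes for nutrient use, drug efflux or stress. Other fungal regulators carry zinc fingers of other kinds, basic leucine zippers, forkhead domains, homeodomains or helix-loop-helix domains. In fungi such genes set which carbon and nitrogen sources are used, and glucose repression holds genes for less favoured sugars down while glucose is present.

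By description, 105 of the 145 genes were counted as DNA-binding regulators and 40 as other proteins. Counted with the 105 was MYCTH_2096307, whose match is a putative transcription factor with a forkhead-associated domain. Its text before the first semicolon does not say that it binds DNA. Of these 40, 16 belong to the general transcription factors, 7 to coregulator complexes, 3 are coregulators without a DNA-binding domain, 4 process RNA, 3 are zinc finger proteins of unknown function and 7 do other work. By domain words, 34 genes were zinc cluster proteins, 30 had other zinc fingers and 6 were basic leucine zippers. A further 5 were forkhead or forkhead-associated, 3 helix-loop-helix, 2 homeodomain and 1 a heat shock transcription factor. The remaining 64 held none of these words. The genes are not independent in name: they carry 102 distinct texts, and 66 of them share a text with at least 1 other.

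Their levels were like those of genes at large. The mean over the 8 libraries had a median of 20.2 RPKM and ranged from 0.0814 to 673, against a median of 19.2 RPKM over all 9110 genes. Together they took between 1.32% and 1.56% of a library's counts, and the 5 genes with the highest RPKM held between 21.2% and 25.9% of those. The tests covered 141 of the genes. The remaining 4, MYCTH_2037479, MYCTH_2117721, MYCTH_2310794 and MYCTH_27592, had at most 8 counts in any library and did not pass the filter on low counts.

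The gene with the highest level was MYCTH_2315566, a basic leucine zipper matching the yeast activator of amino acid biosynthesis genes under amino acid starvation. Its JG207 libraries stood at 397 and 512 RPKM, those of DF1102 at 642 and 767, those of DF1406 at 780 and 753 and those of DF1501 at 706 and 829. All 6 libraries of the deletion strains were thus above both JG207 libraries. Against JG207 the log2 fold changes were 0.64 ± 0.17 (SE) for DF1102, 0.82 ± 0.17 for DF1406 and 0.75 ± 0.17 for DF1501, with edgeR adjusted p = 0.0113, 0.00638 and 0.0165, and none reached the fold of 2 used for a call.

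Next in level came MYCTH_2301985, whose match restrains the nitrogen regulator Gln3, at a mean of 402 RPKM. MYCTH_2310995, a basic leucine zipper matching the regulator of the unfolded protein response, followed at 329 RPKM and ran from 452 and 404 in JG207 to 266 and 208 in DF1406. That decrease was a log2 fold change of −0.80 ± 0.20 (SE, edgeR adjusted p = 0.0131), again under the fold of 2. MYCTH_2310085, a zinc finger protein matching the regulator of glucose repression, had 256 and 168 RPKM in the JG207 libraries and 335 and 340 in DF1501. Its libraries of JG207 and DF1102 overlapped (log2 fold change 0.21 ± 0.21, SE, edgeR adjusted p = 0.42), and the difference between DF1501 and JG207 did not pass the test (0.65 ± 0.21, adjusted p = 0.0551). MYCTH_2298160, another basic leucine zipper, kept between 189 and 266 RPKM in all 8 libraries.

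The first comparison asked what loss of the xylose reductase gene did to these genes when mycelium met d-xylose. Of the 141 tested, 12 were called higher in DF1102 and 6 were called lower. A call needed an adjusted p of 0.05 or less in edgeR's quasi-likelihood test together with a fold of 2 or more. Among all 8335 tested genes 10.2% were higher and 11.1% lower by the same rule, against 8.51% and 4.26% of the genes described here. Without the fold minimum, 50 were higher and 24 lower, where the shares over all genes were 27.8% and 29.5%. Their median log2 fold change was 0.14, with −0.01 over all genes, and the median absolute change was 0.41, with 0.50 over all genes. In counts scaled to library size, the libraries of DF1102 and JG207 did not overlap for any of the 18 called genes. No called gene overlapped in any comparison, so the gap adds no support to a call.

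**Figure D1:**
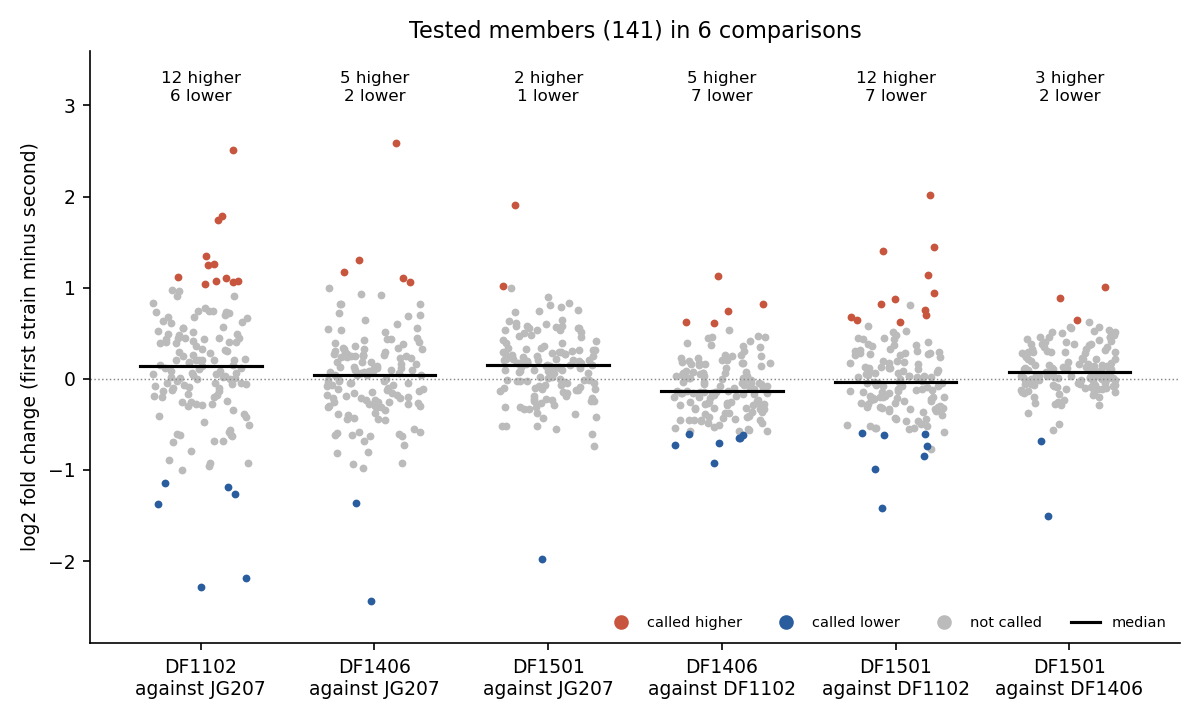
Each point is 1 of 141 tested genes in 1 of 6 comparisons, placed by its log2 fold change from the edgeR fit, where red points were called higher, blue points lower, and the black bar is the median. DF1102 with JG207 and DF1501 with DF1102 hold the most called genes (18 and 19), and DF1501 with JG207 the fewest (3). The minimum fold was 2 where JG207 was the reference and 1.5 elsewhere, so these counts are not directly comparable. Over all tested genes, 10.2% were higher and 11.1% lower in the first of these, 13.1% and 8.24% in the second. In the last the shares were 4.69% and 1.3%, and whether the genes shown differ from all genes was not tested.

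Zinc cluster genes made up most of the genes that were higher. The highest fold change belonged to MYCTH_2305522, which rose from 9.70 and 10.9 RPKM in the JG207 libraries to 59.8 and 58.3 in DF1102. It stood at 60.4 and 58.4 RPKM in DF1406 and at 42.8 and 34.6 in DF1501, so that every library without Mtxyl1 was above both JG207 libraries. The log2 fold change in DF1102 was 2.52 ± 0.14 (SE, edgeR adjusted p = 4.59e-06).

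MYCTH_2305522 shares its description with 13 other genes described here, the largest set with a common text. Their yeast match is a zinc cluster protein proposed to regulate the stress response, and the left-out genes MYCTH_2310145 and MYCTH_2296492 carry the same text. Of the 14 genes, 6 were higher in DF1102 than in JG207 (42.9% of the set), 0 were lower and 8 were not called. Some of these calls lay close to the fold minimum, as given below. Over all tested genes 10.2% were higher and 11.1% lower, and whether the set differs from them was not tested. The median log2 fold change of the set was 0.48, and its range ran from −0.58 to 2.52. A common match says that these proteins resemble 1 yeast protein more than others, not that they share its work.

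MYCTH_2301131 rose from 20.8 and 16.4 RPKM in the JG207 libraries to 65.2 and 64.5 in DF1102 (log2 fold change 1.79 ± 0.20, SE, edgeR adjusted p = 9.55e-05). It fell back partway in the strains with the Weimberg pathway, to 37.8 and 37.5 RPKM in DF1406 and 38.0 and 27.3 in DF1501. MYCTH_46266 rose from 7.19 and 10.2 RPKM to 18.8 and 22.2 (1.25 ± 0.17, adjusted p = 0.000315) and stayed at 15.2 to 22.3 in both pathway strains. The other members of the set that were higher in DF1102 were MYCTH_2304309 and MYCTH_2308290, each with a log2 fold change of 1.08, and MYCTH_2301134 at 1.06 ± 0.32 (adjusted p = 0.0187). Each lay close to the fold of 2 needed for a call, and their calls were not followed gene by gene under the alternatives. MYCTH_2301134 had the widest spread of these, with 12.2 and 6.75 RPKM in the JG207 libraries and 24.5 and 15.4 in DF1102. It is the neighbour of MYCTH_2301131 in the RefSeq gene order, so 1 pair of adjacent genes with the same match was higher together.

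**Figure D2:**
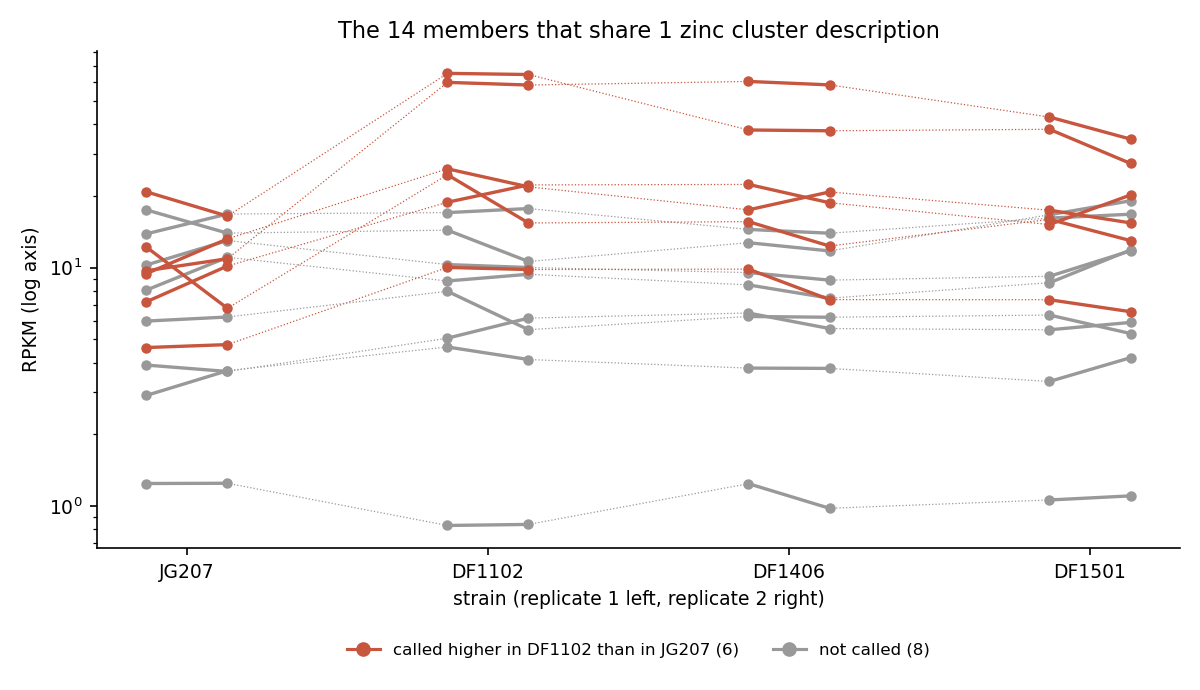
The 14 genes with the same zinc cluster description are shown as RPKM on a log axis, with replicate 1 and 2 of each strain joined by a solid line. The 6 genes called higher in DF1102 than in JG207 (red) include the most abundant of the set, at 58.3 to 65.2 RPKM in DF1102, while the lowest gene lay near 1 RPKM in every strain.

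Over the whole zinc cluster class, DF1102 had 7 of 34 genes higher (20.6%) and 1 lower (2.94%). Over all tested genes the shares were 10.2% and 11.1%, and whether the class differs was not tested. The median log2 fold change of the class was 0.37. The seventh of the higher genes was MYCTH_2303722, whose match activates the catabolic serine and threonine deaminase gene CHA1. It had 5.61 and 6.19 RPKM in the JG207 libraries, 20.0 and 19.7 in DF1102, 13.6 and 12.1 for DF1406 and 10.8 and 11.4 for DF1501. The strains were ordered DF1102, DF1406, DF1501, JG207 without overlap between libraries of any of them, and the log2 fold change in DF1102 was 1.75 ± 0.10 (SE, edgeR adjusted p = 4.86e-06). The zinc cluster gene that was lower, MYCTH_2305551, is described with the carbon regulators below.

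Outside the zinc cluster class, 5 genes were higher in DF1102. MYCTH_2061162 matches a yeast activator of genes expressed at the M/G1 boundary and rose from 11.5 and 11.9 RPKM to 27.4 and 32.4 (log2 fold change 1.35 ± 0.17, SE, edgeR adjusted p = 0.000216). MYCTH_2307931, a forkhead gene whose match drives G2/M genes, rose at a low level from 1.77 and 1.93 RPKM to 4.00 and 4.87 (1.26 ± 0.18, adjusted p = 0.000422). MYCTH_2307033, a putative DNA-binding factor of no stated role, rose from 5.58 and 6.08 RPKM to 13.6 and 11.8 (1.12 ± 0.13, adjusted p = 0.000131). The last of the 8 largest increases was MYCTH_2311509, which matches a small histone-fold subunit of TFIID, the complex that recognises the core promoter, at 20.6 and 19.2 RPKM in the JG207 libraries and 39.1 and 47.3 in DF1102 (1.11 ± 0.15, adjusted p = 0.000279). The fifth, MYCTH_2309600, a putative repressor with proline-rich zinc fingers, rose from 17.1 and 18.7 RPKM to 38.3 and 35.5 (1.04 ± 0.11, adjusted p = 7.87e-05).

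The 6 genes that were lower in DF1102 did not share a match. The deepest decrease was that of MYCTH_92449, a zinc finger gene whose yeast match induces the G1 cyclin gene CLN3 in response to glucose. It fell from 9.18 and 11.0 RPKM in the JG207 libraries to 2.26 and 1.89 in DF1102, and lay at 1.77 and 1.79 in DF1406 and 1.93 and 3.24 in DF1501 (log2 fold change in DF1102 −2.29 ± 0.22, SE, edgeR adjusted p = 4.72e-05). All 6 libraries without Mtxyl1 thus lay between 1.77 and 3.24 RPKM. MYCTH_2294145, matching a homeodomain repressor of M/G1 genes, fell from 15.1 and 21.3 RPKM to 3.25 and 4.74 (−2.18 ± 0.25, adjusted p = 0.00011) and stood higher again in DF1501 at 8.47 and 13.5.

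MYCTH_2305551 was the most abundant of the genes that fell. Its match is the zinc cluster activator that yeast needs to derepress genes for growth on non-fermentable carbon, among them those of gluconeogenesis. It had 231 and 261 RPKM in the JG207 libraries, 89.3 and 101 in DF1102, 130 and 118 for DF1406 and 154 and 215 for DF1501, and the strains again did not overlap (log2 fold change in DF1102 −1.38 ± 0.15, SE, edgeR adjusted p = 0.000101). MYCTH_2299852 matches the galactose-pathway repressor that acts by binding an activator rather than DNA. It fell from 7.88 and 6.90 RPKM to 3.04 and 3.13 (−1.27 ± 0.17, adjusted p = 0.000284), was at 6.72 and 6.17 in DF1406, and at 11.0 and 14.1 in DF1501 exceeded every other library.

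The decreases ended with MYCTH_2295908 and MYCTH_2096307. MYCTH_2295908, whose match binds the promoters of early meiotic genes and couples them to nutrition, had 78.5 and 99.5 RPKM in the JG207 libraries and 41.3 and 37.0 in DF1102 (log2 fold change −1.19 ± 0.12, SE, edgeR adjusted p = 6.04e-05). MYCTH_2096307, a chromatin-bound protein with a forkhead-associated domain, had 16.5 and 23.0 RPKM in the JG207 libraries and 9.53 and 8.33 in DF1102 (−1.14 ± 0.16, adjusted p = 0.000305). Its call was lost without JG207 replicate 2 (−0.94), and that of MYCTH_2311509 without DF1102 replicate 2 (0.95), both by the fold minimum. MYCTH_2307931 fell under the fold minimum when log2(RPKM + 1) was fitted with limma (0.93).

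**Figure D3:**
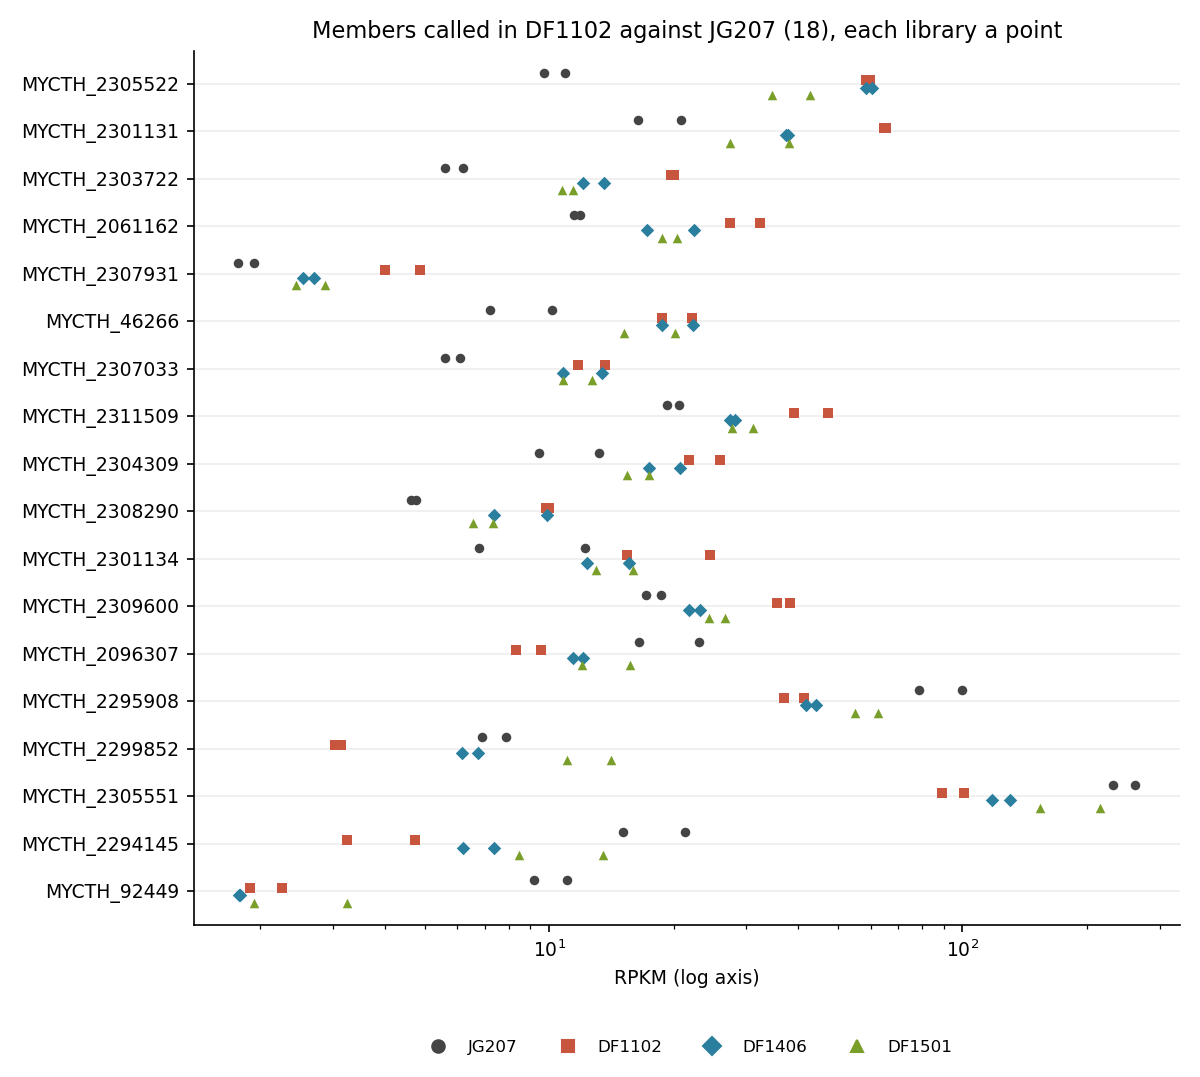
RPKM of the 18 genes called in DF1102 against JG207, on a log axis, with 1 point per library and the 4 strains by colour and shape, and genes run from the highest to the lowest log2 fold change. DF1102 (squares) and JG207 (circles) do not overlap in any row, which a call all but requires. In every row except that of MYCTH_2299852 the libraries of all 3 deletion strains lie on the same side of JG207.

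Grouped by words in the whole description, a gene being able to fall in several groups, the carbon regulators gave 3 calls. Of 19 tested carbon genes, 0 were higher in DF1102 and 3 were lower, namely MYCTH_92449, MYCTH_2305551 and MYCTH_2299852. These 3 are 15.8% of the group, next to 11.1% of all tested genes lower and 10.2% higher, and in so small a group nothing particular to carbon regulators is read from them. The group's median log2 fold change was −0.27. The match of MYCTH_2305551 was shared by 3 other genes, and these were not called. The set of 4 spanned log2 fold changes from −1.38 to 0.75, so genes with the same match moved in both directions. Of 3 genes matching the CLN3 inducer, MYCTH_27592 was nearly silent and MYCTH_2306491 had a log2 fold change of −0.06 ± 0.13 beside the −2.29 of MYCTH_92449.

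Of 41 stress and drug genes, 6 were higher (14.6%) and 0 lower, next to 10.2% and 11.1% of all tested genes. These 6 were those of the 14-gene zinc cluster set. Since the set's description holds the word stress, the count of the group repeats that of the set. A further set in the group, 3 genes matching a regulator of multidrug resistance and oxidative stress, had 0 called, with log2 fold changes from −0.10 to 0.39. The 3 genes matching a nuclear response regulator ran from −0.62 to 0.68, with 0 called.

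Cell cycle and development words marked 20 tested genes, of which MYCTH_2061162 was higher and MYCTH_2294145 and MYCTH_2295908 were lower. By this count 5% were higher and 10% lower, next to 10.2% and 11.1% of all tested genes. The forkhead gene MYCTH_2307931, higher in DF1102 and matched to a regulator of G2/M genes, is outside this count because its description holds none of the words. The 2 other genes with the match of MYCTH_2061162 had log2 fold changes of −0.68 and 0.21 and were not called. No call was made in DF1102 among 12 nitrogen and amino acid genes, and none reached a fold of 2. In the edgeR fit 8 of them had an unadjusted p under 0.05, as did 82 of the 141 tested genes described here. Over all tested genes, 27.8% were higher and 29.5% lower at an adjusted p of 0.05 or less without a fold minimum. Nothing particular to the group is read from the 8. The group's median log2 fold change was 0.35. The words do not take in MYCTH_2303722, the serine and threonine deaminase regulator match, which was called higher and is an amino acid regulator by its match. The largest changes of that group were those of MYCTH_2308823, matching a zinc cluster regulator of arginine-responsive genes, at 1.61 and 1.70 RPKM in the JG207 libraries and 2.32 and 2.99 in DF1102 (0.68 ± 0.20, SE, adjusted p = 0.0178), and of MYCTH_2315566, given above.

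Of 10 metal, phosphate and pH genes, 0 were called in DF1102 against JG207. In the edgeR fit 3 had an unadjusted p under 0.05, next to 82 of the 141 tested genes described here. The group's median log2 fold change was 0.03. The largest changes there belonged to genes matching a stress-response activator controlled by calcineurin, the calcium-dependent phosphatase. MYCTH_2310773 had 2.24 and 2.31 RPKM in the JG207 libraries and 4.02 and 4.55 in DF1102 (0.91 ± 0.27, SE, edgeR adjusted p = 0.017), and without DF1102 replicate 1 it reached the fold of 2 (1.01). MYCTH_59287 had 54.2 and 73.1 RPKM in the JG207 libraries and 103 and 107 in DF1102 (0.73 ± 0.13, adjusted p = 0.00158). The group of lipid words held MYCTH_2296662 alone, a helix-loop-helix gene whose match derepresses phospholipid synthesis, and its log2 fold change was 0.12 ± 0.11 (adjusted p = 0.363).

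**Figure D4:**
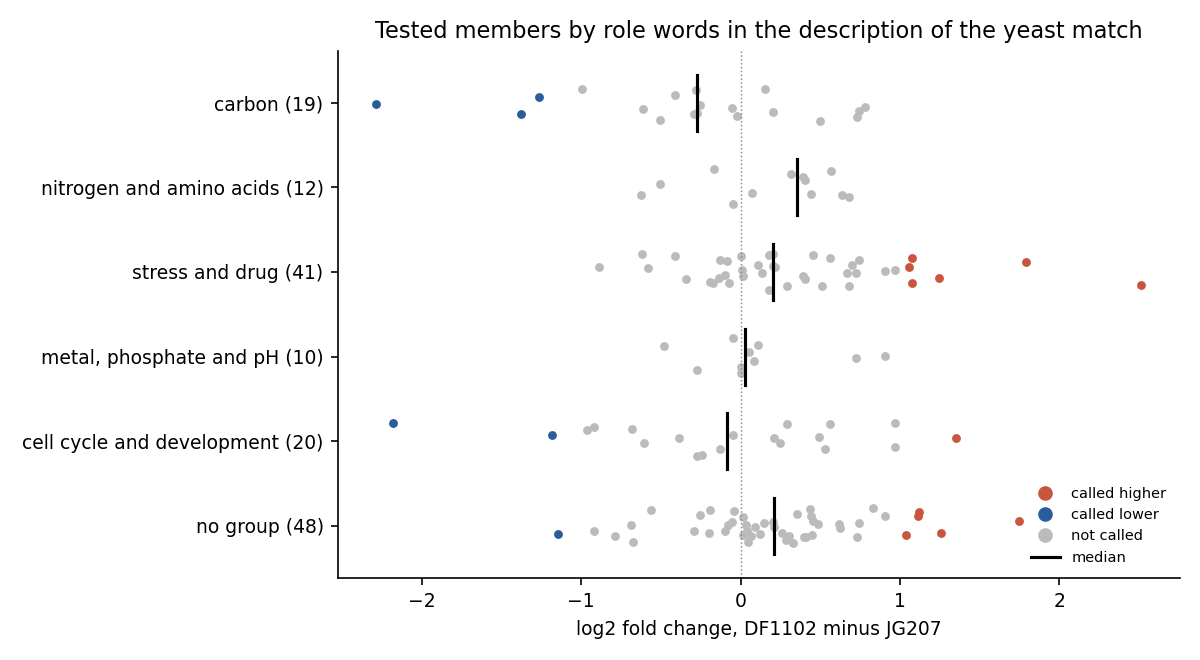
Log2 fold change of DF1102 against JG207 for the tested genes of 5 role groups and for the 48 genes in no group, with the number tested in brackets, where red points were called higher, blue points lower, and the black bar is the median. The 6 red points of the stress and drug row are the zinc cluster set, and the 3 blue points of the carbon row are MYCTH_92449, MYCTH_2305551 and MYCTH_2299852.

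DF1406 and DF1501 were each compared with JG207 too. All 3 comparisons share the JG207 libraries, so their values are set side by side. In DF1406, 5 genes were higher and 2 were lower than in JG207, where 7.13% and 4.01% of all tested genes were. In DF1501, 2 were higher and 1 was lower, where 4.69% and 1.3% of all genes were. The genes higher in DF1406 were MYCTH_2305522 (log2 fold change 2.59 ± 0.14, SE), MYCTH_46266 (1.31 ± 0.17), MYCTH_2303722 (1.18 ± 0.10), MYCTH_2307033 (1.11 ± 0.13) and MYCTH_2301131 (1.07 ± 0.20). The last 2 of these had edgeR adjusted p = 0.00034 and 0.00332, and the first 8.59e-06.

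Lower in DF1406 were MYCTH_92449 (−2.44 ± 0.22, SE, edgeR adjusted p = 8.62e-05) and MYCTH_2294145 (−1.36 ± 0.24, adjusted p = 0.00267). In DF1501 the higher genes were MYCTH_2305522 (1.91 ± 0.14, adjusted p = 6.18e-05) and MYCTH_46266 (1.02 ± 0.17, adjusted p = 0.00466), and MYCTH_92449 was lower (−1.98 ± 0.21, adjusted p = 0.000438). The zinc cluster set had medians of 0.43 in DF1406 and 0.36 in DF1501. MYCTH_46266 fell below the fold of 2 in DF1501 without JG207 replicate 1 (0.86) or without DF1501 replicate 2 (0.85), and MYCTH_2307033 did so in DF1406 without DF1406 replicate 1 (0.99). Without JG207 replicate 1, 5 genes in place of 2 were higher in DF1501, and without DF1501 replicate 2, 2 in place of 1 were lower.

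The design next compares the pathway strains with DF1102, which lacks Mtxyl1 without carrying a pathway. Between DF1501 and DF1102, 12 genes were higher and 7 were lower in DF1501 at a fold of at least 1.5, with 13.1% and 8.24% of all tested genes called in these directions. The median log2 fold change was −0.03 for the 141 genes and −0.00 for all genes. This comparison and those of DF1102 with JG207 share the DF1102 libraries, and a gene whose DF1102 libraries happened to lie low or high would move in both.

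MYCTH_2299852, the galactose-repressor match, showed the largest increase, 2.02 ± 0.17 (log2, SE, edgeR adjusted p = 0.000185), and MYCTH_2294145, the homeodomain repressor match, followed at 1.45 ± 0.25 (adjusted p = 0.00326). MYCTH_2111519, which matches TFIIIA, the factor that directs RNA polymerase III to 5S rRNA genes, had 1.91 and 1.76 RPKM in DF1102 and 4.47 and 5.26 in DF1501 (1.40 ± 0.21, adjusted p = 0.002). The other gene matching TFIIIA, MYCTH_2062613, was more abundant, at 21.7 and 19.5 RPKM in DF1102 and 13.1 and 17.4 in DF1501, and was not called (−0.44, adjusted p = 0.0514). MYCTH_2144297, matching a Myc-like helix-loop-helix protein, rose from 106 and 101 RPKM in DF1102 to 232 and 222 in DF1501 (1.14 ± 0.18, adjusted p = 0.00218), and its JG207 libraries had 218 and 170.

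The remaining increases were smaller, with log2 fold changes between 0.63 and 0.95. Carbon regulators were among them: MYCTH_2305551 (0.95), and MYCTH_117495, whose match regulates gluconeogenesis and glyoxylate cycle genes (0.88). MYCTH_117495 had 38.7 and 30.3 RPKM in the JG207 libraries, 17.9 and 17.0 in DF1102, 22.2 and 20.9 for DF1406 and 27.8 and 36.8 for DF1501, and in DF1102 against JG207 it decreased by 1.00 on the log2 scale, just short of the fold minimum. With MYCTH_2313746 (0.76), matching a repressor that recruits the Cyc8-Tup1 corepressor, and MYCTH_2299852, 4 of 19 carbon genes were higher in DF1501 than in DF1102 and 0 were lower. These 4 are 21.1% of the group, next to 13.1% of all tested genes higher and 8.24% lower. In so small a group nothing particular to carbon regulators is read from them. MYCTH_2297038 (0.82), MYCTH_2306870 (0.70), MYCTH_2299220 (0.68), MYCTH_2302964 (0.65) and MYCTH_2096307 (0.63) completed the 12. Of these, MYCTH_2306870 matches an activator of membrane stress genes, MYCTH_2299220 a zinc finger regulator of respiratory genes, and MYCTH_2302964 the DNA-binding partner of Swi6 at genes of DNA synthesis.

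MYCTH_2310773, the calcineurin-controlled match, was the gene with the largest decrease in DF1501. It fell from 4.02 and 4.55 RPKM in DF1102 to 2.06 and 1.13, next to 2.24 and 2.31 in JG207 and 4.61 and 4.13 in DF1406 (log2 fold change −1.42 ± 0.28, SE, edgeR adjusted p = 0.00588). MYCTH_2301131 (−0.98 ± 0.19, adjusted p = 0.00558), MYCTH_2303722 (−0.84 ± 0.10, adjusted p = 0.000744) and MYCTH_2307931 (−0.74 ± 0.18, adjusted p = 0.0129) came next. The other decreases were those of MYCTH_2061162 (−0.62), MYCTH_2305522 (−0.61) and MYCTH_2300922 (−0.60, matching a zinc finger protein that modulates translation termination). MYCTH_2307931 lost its call without DF1102 replicate 2 (−0.57, adjusted p = 0.0949) or without DF1501 replicate 2 (−0.58, adjusted p = 0.0719). Without DF1501 replicate 1, 12 genes in place of 7 were lower.

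Between DF1406 and DF1102, 5 genes were higher and 7 were lower in DF1406, where 7.81% and 4.32% of all genes were. With library size as the only scaling the split was 2 higher and 13 lower. The 141 genes had a median log2 fold change of −0.13, against −0.01 over all genes. MYCTH_2299852 showed the largest increase again, 1.12 ± 0.17 (SE, edgeR adjusted p = 0.00506), ahead of MYCTH_2294145 (0.82 ± 0.25, adjusted p = 0.0447). MYCTH_2301985, the Gln3 inhibitor match, rose from 339 and 336 RPKM in DF1102 to 495 and 588 in DF1406 (0.75 ± 0.15, adjusted p = 0.0122), and its DF1501 libraries, at 405 and 360, lay between those of DF1102 and DF1406. MYCTH_2302964 had 4.83 and 4.66 RPKM in DF1102 and 6.82 and 7.15 in DF1406 (0.62 ± 0.13, adjusted p = 0.0143), and MYCTH_2144297 was the fifth (0.61 ± 0.17, adjusted p = 0.0373).

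The 7 decreases in DF1406 included general transcription genes. MYCTH_2300332, a forkhead gene whose match drives S-phase genes, fell most, from 21.1 and 19.6 RPKM in DF1102 to 9.86 and 10.6 in DF1406, below both JG207 libraries at 13.1 and 15.9 (log2 fold change −0.93 ± 0.11, SE, edgeR adjusted p = 0.00165). Then came MYCTH_2301131 (−0.72 ± 0.19, adjusted p = 0.0284), MYCTH_2307931 (−0.70 ± 0.18, adjusted p = 0.025) and MYCTH_2309600 (−0.65 ± 0.11, adjusted p = 0.00678). MYCTH_2312385 matches a subunit of TFIIH, which opens promoter DNA, MYCTH_2132560 matches TFIIB, which bridges promoter and polymerase, and MYCTH_2296735 matches a part of the CCR4-NOT complex of mRNA turnover. They fell by 0.65, 0.61 and 0.61 on the log2 scale. MYCTH_2296735 ran from 52.6 and 51.4 RPKM in the JG207 libraries to 88.6 and 85.0 in DF1102 and 53.6 and 55.2 in DF1406.

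Calls of this comparison rested on every library. Without DF1102 replicate 1, 0 genes were higher and 1 was lower. Without DF1102 replicate 2, DF1406 replicate 1 or DF1406 replicate 2, 1, 2 and 1 were higher and 4, 2 and 4 lower.

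**Figure D5:**
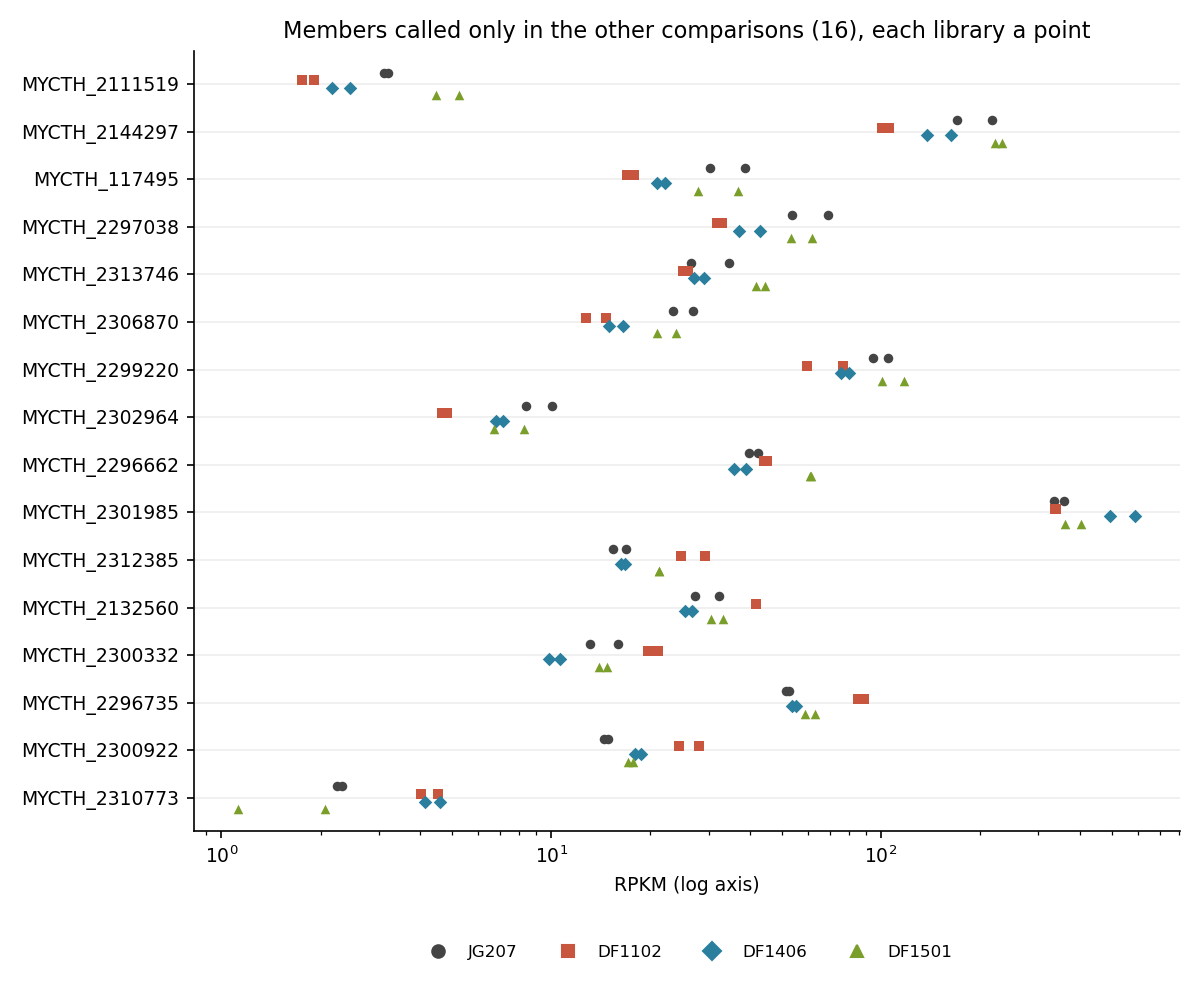
RPKM of the 16 genes called in at least 1 of the other 5 comparisons but not in DF1102 against JG207, on a log axis, with 1 point per library and the 4 strains by colour and shape, and genes run by their log2 fold change of DF1501 against DF1102. In the upper rows DF1102 (squares) lies left of DF1501 (triangles), as for MYCTH_2144297 with 101 to 106 against 222 to 232 RPKM, and in the lowest rows it lies right of it.

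The pathway designs were compared with each other directly. DF1501 had 3 genes higher and 2 lower than DF1406 at a fold of at least 1.5, where 1.96% and 1.84% of all genes were, and with library size as the only scaling the split was 5 and 2. MYCTH_2111519, the less abundant TFIIIA match, rose from 2.17 and 2.45 RPKM in DF1406 to 4.47 and 5.26 in DF1501 (log2 fold change 1.00 ± 0.21, SE, edgeR adjusted p = 0.0313), and MYCTH_2299852 was higher by 0.89 ± 0.16 (adjusted p = 0.0206). MYCTH_2296662, the phospholipid regulator match, had 35.7 and 39.0 RPKM in DF1406 and 61.0 and 61.2 in DF1501, above all other libraries (0.64 ± 0.11, adjusted p = 0.0164). Lower in DF1501 were MYCTH_2310773 (−1.51 ± 0.28, adjusted p = 0.0229) and MYCTH_2305522 (−0.68 ± 0.13, adjusted p = 0.027).

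Each of these 5 calls was lost under some alternatives. In an edgeR fit of the 4 libraries compared, 0 genes were called in either direction. Without DF1406 replicate 1 or 2, 0 were higher, and 1 was without DF1501 replicate 2 and 7 without DF1501 replicate 1. In the lower direction 0 were called without either library of DF1406, without either library of DF1102 or without DF1501 replicate 2.

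Other genes of the transcription machinery served for comparison, 62 in all, whose descriptions name the mediator, SAGA, TFIID and further general factors, SWI/SNF, RSC and INO80 remodelling complexes or RNA polymerase II subunits. Of these, 1 was higher and 1 lower in DF1102 than in JG207, and the median log2 fold change was 0.18. Each call is 1.61% of the list, where 10.2% of all tested genes were higher and 11.1% lower. The higher was MYCTH_42359, matching a component of the RSC remodelling complex, with 74.4 and 86.7 RPKM in the JG207 libraries and 228 and 205 in DF1102 (1.43 ± 0.12, SE, edgeR adjusted p = 2.87e-05). The lower was MYCTH_115198, matching a subunit shared by TFIID and SAGA, with 110 and 83.8 RPKM in the JG207 libraries and 47.4 and 38.3 in DF1102 (−1.20 ± 0.17, adjusted p = 0.000354). MYCTH_115198 was also lower in DF1406 than in JG207 (−1.19), the 1 call of the list there, and 0 were called in DF1501. Against DF1102, 0 of the 62 were higher and 3 lower in DF1406 and 1 was higher and 2 lower in DF1501, and between DF1501 and DF1406 1 was higher and 0 lower. Over all tested genes the shares were 7.13% higher and 4.01% lower in DF1406 and 4.69% and 1.3% in DF1501 against JG207, 7.81% and 4.32% in DF1406 and 13.1% and 8.24% in DF1501 against DF1102, and 1.96% and 1.84% between DF1501 and DF1406. Among the 105 genes counted as DNA-binding regulators 11 of 103 tested were higher in DF1102, 10.7% beside the 10.2% of all genes. In that group 5 were lower, MYCTH_2096307 among them, 4.85% beside 11.1%. Among the 40 genes of other kinds 1 of 38 was higher and 1 lower. Whether these shares differ was not tested.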

How the data were processed

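Total RNA of 8 mycelial libraries was sequenced (DNBSEQ). The authors removed adapters and poor reads with SOAPnuke, mapped the rest with TopHat2 2.0.12 and took uniquely assigned reads per gene from HTSeq 0.13.5. These deposited counts were tested as given. The strand setting is not given in the sources used here, so overlapping and antisense genes cannot be told apart. The deposited RPKM values, which the authors computed from the counts, gene length and library total, were used for levels. In the JG207 replicate 1 column 3 rows without a gene ID (totals) were left out.

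Counts were fitted in edgeR 4.0.16 (R 4.3.3, TMM factors 0.954 to 1.05, quasi-likelihood, all 8 libraries, a mean per strain). The filter (minimum count 10) kept 8335 genes, over which p-values were Benjamini-Hochberg adjusted. Calls needed an adjusted p of 0.05 or less with a fold of 2 or more (comparisons with JG207) or 1.5 or more (the rest). The SE is the absolute log2 fold change over the square root of F. All 145 genes matched a RefSeq locus tag. The script was tested on simulated counts.

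The genes, groups and tests were chosen with earlier results of these data known. Role and domain groups follow words in the descriptions. The words leucine zipper, proline-rich and environment were removed before matching, and pH and G1 were read as whole words. The 40 genes that are no DNA-binding regulators were listed by reading the descriptions. Named were the 8 highest and 8 lowest calls in DF1102 against JG207 and the 4 and 4 of each other comparison (libraries not overlapping in library-scaled counts, mean of at least 1 RPKM), the 5 highest levels and the 2 largest changes of each role group; other genes with values were named after their values were seen. Alternatives were DESeq2 1.42.0, other scalings and filters, limma 3.58.1 on log2 RPKM with a pseudocount of 1 or 0.1, no fold minimum, a replicate block, a fit of 4 libraries and leaving out each library.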

Additional observations from a re-analysis of the deposited data

How the results depend on the processing

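No result reversed. Of 954 values of 53 named results under an alternative, 878 kept their side of the threshold, 75 lost the call and 1 gained it. A change of direction was counted only where the main fit or the alternative made a call. Comparisons without JG207 held 62 of the lost calls. With no fold minimum, 50 were higher and 24 lower in DF1102 than in JG207, next to 27.8% and 29.5% of all tested genes. Against JG207 these counts were 22 and 20 for DF1406 and 25 and 4 for DF1501. Against DF1102, 23 genes were lower in DF1406 and 23 in DF1501. Shares over all tested genes without the fold minimum were taken for DF1102 against JG207 alone. Nothing particular to these genes is therefore read from the other counts. With library size alone, 2 were higher and 13 lower in DF1406 than in DF1102, and 5 higher in DF1501 than in DF1406. By limma on log2(RPKM + 1), with or without the filter, 2 were higher in DF1406 and 1 in DF1501 than in JG207, 2 higher in DF1406 than in DF1102 and 4 lower in DF1501 than in DF1102. With the filter 5 were higher in DF1501 than in DF1406. At a pseudocount of 0.1, 2 were higher and 13 lower in DF1406 than in DF1102 and 5 higher in DF1501 than in DF1406. In edgeR on the 4 libraries of DF1501 and DF1406, 0 were higher and 0 lower. Among DNA-binding regulators alone, 3 were higher and 4 lower in DF1406 than in DF1102 and 1 higher in DF1501 than in DF1406.

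Leaving out 1 library at a time gave 11 to 13 higher and 6 to 8 lower for DF1102, 5 to 6 and 2 to 3 for DF1406, and 2 to 5 and 1 to 2 for DF1501 against JG207. The ranges were 0 to 5 higher and 1 to 7 lower in DF1406 against DF1102, 11 to 13 and 5 to 12 in DF1501 against DF1102, and 0 to 7 and 0 to 3 in DF1501 against DF1406. The lone library is then assumed to vary like those of other strains. The cause of these changes was not tested.

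It is not given in the sources used here whether same-numbered libraries were handled together. Their deviations correlated between −0.22 and 0.17. With the replicate block the counts were 12 and 6, 5 and 2, 3 and 1 against JG207, 5 and 7 and 12 and 7 against DF1102, and 3 and 2 between DF1501 and DF1406. With 2 libraries a strain, small changes of low genes limit what can be called.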

Other observations

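Several genes came in pairs with the same yeast match and very different levels. Of the genes matching the TATA-binding protein, MYCTH_2306864 had between 128 and 183 RPKM and MYCTH_2310794 at most 4 counts in any library. Of those matching a SAGA subunit that contacts the TATA-binding protein, MYCTH_2298636 had between 19.6 and 30.4 RPKM and MYCTH_2117721 at most 5 counts. Whether the silent copies are working genes cannot be read from these values.

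In the RefSeq gene order, 5 pairs of the genes were direct neighbours. In DF1102 against JG207, MYCTH_2301131 and MYCTH_2301134 had log2 fold changes of 1.79 and 1.06. The other pairs were MYCTH_2297028 and MYCTH_2297030 (−0.20 and 0.01), MYCTH_2299531 and MYCTH_2299532 (0.02 and 0.39), MYCTH_2307005 and MYCTH_2307010 (−0.25 and 0.05), and MYCTH_2311995 and MYCTH_2311998 (0.12 and −0.09), with 0 calls.

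The libraries of 1 strain differed for these genes by a median of 0.17 on the log2 scale in JG207, 0.13 in DF1102, 0.13 in DF1406 and 0.17 in DF1501. Over all tested genes the medians were 0.15, 0.13, 0.13 and 0.17.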
